A study of Mus musculus with 4 samples.

Results

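The genes described here are 9 regulators of the undifferentiated state, taken by name: the core transcription factors Pou5f1, Sox2 and Sall4, the chromatin proteins Utf1, Dppa2 and Dppa4, and the RNA-binding proteins Lin28a, Trim71 and L1td1. All 9 are among the 20716 genes to which the RefSeq entries of the deposited table were summed, and 7 of them had reads; Sall4 and Dppa4 are listed at 0 in every library. The study sequenced ribosome footprints, the mRNA stretches protected by translating ribosomes, from mouse embryonic stem cells (ESCs) and embryoid bodies (EBs), the floating aggregates in which ESCs differentiate. Each stage has 2 libraries, 1 of wild-type (WT) and 1 of Mettl3-KO (KO) cells, all C57BL/6. Mettl3 is the catalytic subunit of the enzyme that writes N6-methyladenosine (m6A) on mRNA. Both ESC lines grew in serum-free N2B27 medium with LIF, CHIR99021 (a GSK3 inhibitor) and PD0325901 (a MEK inhibitor), and both EB cultures in medium with serum over a span of 8 to 21 days. The sources used here do not give the exact day of an EB library, the altered allele or how many clones stand behind a line. Mettl3 itself, from 1 entry, was at 563 (WT) and 298 (KO) in ESCs and 429 (WT) and 327 (KO) in EBs, so footprints on it were 1.89-fold (1.69 to 2.12) and 1.31-fold (1.09 to 1.57) lower in KO and not absent; counts over a whole coding sequence cannot check an allele whose altered part is not known. With 1 library per group, the genotype cannot be told apart from the cell line or the library.

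Oct4, the product of Pou5f1, and Sox2 bind DNA side by side and keep each other and many genes of the pluripotent state transcribed; Sall4 is a zinc-finger protein of the same circuit. Utf1 is a chromatin-bound protein of pluripotent cells, and Dppa2 and Dppa4 are a pair of DNA-binding proteins that act together at developmental promoters and at genes of the 2-cell-like state. Lin28a binds let-7 precursors and blocks their maturation, Trim71 is an RNA-binding ubiquitin ligase whose mRNA let-7 represses, and L1td1 is an RNA-binding protein derived from a LINE-1 retrotransposon.

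The table gives a normalised footprint count per coding sequence, and its reads could be recovered exactly. Reads on genes numbered between 4075850 and 11455539 per library, and 1 read was worth between 0.533 and 1.56 normalised counts. Intervals below are 95% intervals for counting error only; they hold no variation between cultures, which 1 library per group cannot show. Scaling the libraries to equal totals of gene reads instead moved the median log2 fold of all genes by 0.125 for KO against WT ESCs and by 0.117 for KO against WT EBs, and no measured member changed direction.

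How much of each member could be counted differed widely. The table keeps reads that could belong to more than 1 entry apart as ambiguous, 8.62% to 10.5% of reads per library, and reads with more than 1 place in the genome apart as not unique, 48.4% to 55.7%. In the GRCm38.p6 annotation the Pou5f1 entry NM_001252452 lies wholly inside NM_013633, and NM_001252452 had 0 reads, so that under this annotation Pou5f1 reads can come only from the first 393 of 1059 coding nucleotides of NM_013633. Of the 28-nt windows in that stretch 10.1% have an exact copy elsewhere in the genome. Dppa2 has 1 entry, but 92.3% of its windows are copied, spread over 10 chromosomes, and 68 of 879 windows can hold a uniquely placed footprint. Its values therefore rest on 3 short stretches and on 69 to 269 reads per library. The sequences below show the end of the counted part of Pou5f1 and the longest countable stretch of Dppa2; capitals mark bases that could be counted.
Pou5f1, coding positions 364 to 423 of NM_013633, spliced across 1 intron: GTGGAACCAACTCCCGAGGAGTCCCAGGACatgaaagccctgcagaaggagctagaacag
Dppa2, coding positions 68 to 163, chr16:48311609-48311704, plus strand: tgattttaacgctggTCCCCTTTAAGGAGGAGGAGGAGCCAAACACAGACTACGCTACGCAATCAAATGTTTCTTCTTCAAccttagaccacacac

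The other measured members were countable along nearly their whole length: 0% of windows were copied in Utf1, Lin28a and Trim71, 2.89% in Sox2 and 10.8% in L1td1. Sall4 has 3 entries and Dppa4 has 2, with 0 reads in all of them. By the annotation used here 1332 of 3204 nucleotides of the longest Sall4 entry lie in no other entry. For the longest Dppa4 entry it is 156 of 891, so sharing between entries does not cover the whole of either sequence. Of the windows in these unshared parts 0% are copied elsewhere for Sall4 and 60.5% for Dppa4, which leaves Dppa4 51 usable windows. Why both genes are at 0 was not tested. Of 2683 genes with 2 or more entries and some unshared coding sequence, 54.2% likewise had 0 reads, against 99.8% of 1197 such genes with none. The 0 of Sall4 and Dppa4 is not read here as an absence of translation.

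**Figure D1:**
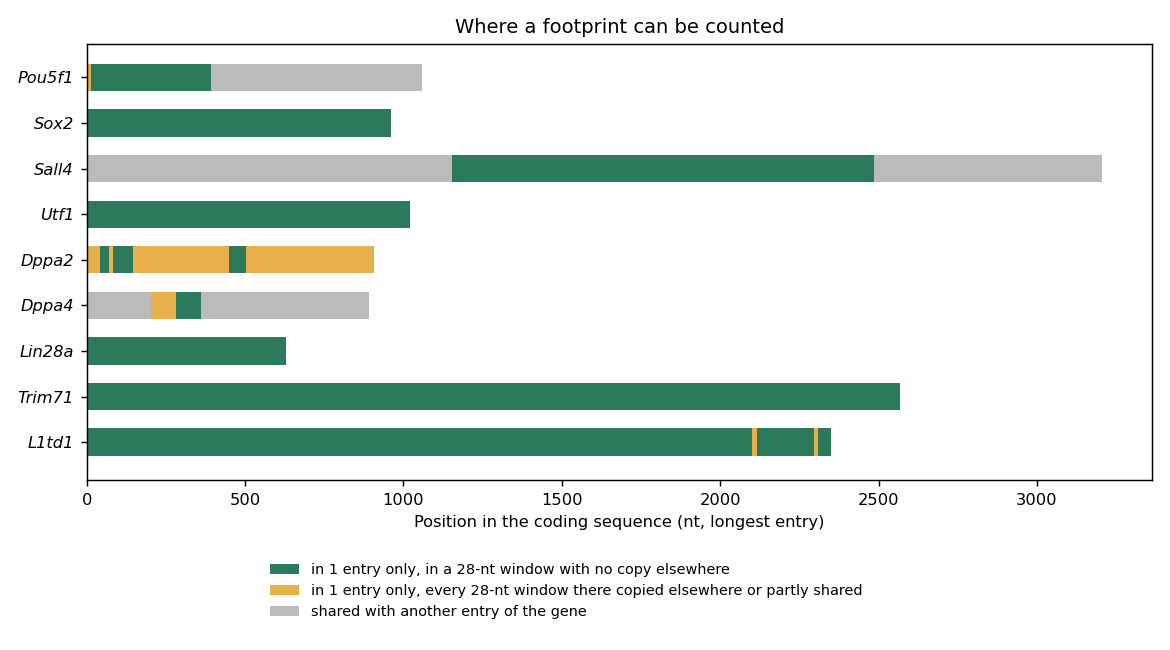
Each bar is the coding sequence of the longest entry of a member, drawn to scale in nucleotides; green parts can hold a uniquely assigned footprint, orange parts cannot because every 28-nt window there is copied elsewhere or partly shared, and grey parts are shared with another entry of the gene. Pou5f1 is countable only within its first 393 nt and Dppa2 in 3 short stretches, whereas Utf1, Lin28a and Trim71 are countable throughout.

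Among the core factors, Pou5f1 (chromosome 17, 35506032 to 35510777) was at a normalised count of 2860.4 (WT) and 1914 (KO) in ESCs and 1493 (WT) and 3205 (KO) in EBs. The order of the genotypes turned over between the stages, and no pair of neighbours in the order of the 4 levels overlapped in counting error. In ESCs it was 1.49-fold lower in KO (interval 1.43 to 1.57) and in EBs 2.15-fold higher in KO (1.99 to 2.32). From ESCs to EBs it was 1.92-fold lower in WT (1.78 to 2.06) and 1.67-fold higher in KO (1.59 to 1.77). In bulk libraries such as these, fewer cells of a type and fewer footprints per cell cannot be told apart. Markers of visceral endoderm, an extraembryonic layer, summed to 64291 in the WT EB library and 3571 in the KO one. The EB libraries thus also differed in footprints on markers of another cell type. The part of this in the member values was not tested.

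Sox2, a single-exon gene (chromosome 3, 34649995 to 34652461), stood at 3859 (WT) and 2856 (KO) in ESCs and 3067 (WT) and 4524 (KO) in EBs. Its order was that of Pou5f1 at the top, with KO EBs highest and WT ESCs next, over a narrower range. Sox2 was 1.35-fold lower in KO than in WT ESCs (1.30 to 1.40) and 1.48-fold higher in KO than in WT EBs (1.39 to 1.56). The EB over ESC ratio was 0.795 in WT (0.754 to 0.838) and 1.58 in KO (1.51 to 1.66). The 250 bases before the transcription start of both genes are printed from the RefSeq promoter table (build GRCm38.p6) because Oct4 and Sox2 act together and both genes were lower in KO ESCs and higher in KO EBs; their profiles were 0.238 apart by the distance described with the nearest genes.
Pou5f1 promoter, chr17:35505782-35506031, plus strand: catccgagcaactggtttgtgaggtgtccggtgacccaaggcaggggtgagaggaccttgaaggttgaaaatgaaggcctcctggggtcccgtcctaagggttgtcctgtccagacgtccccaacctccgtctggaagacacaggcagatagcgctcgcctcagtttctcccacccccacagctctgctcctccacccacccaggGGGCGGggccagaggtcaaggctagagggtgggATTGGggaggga
Sox2 promoter, chr3:34649745-34649994, plus strand: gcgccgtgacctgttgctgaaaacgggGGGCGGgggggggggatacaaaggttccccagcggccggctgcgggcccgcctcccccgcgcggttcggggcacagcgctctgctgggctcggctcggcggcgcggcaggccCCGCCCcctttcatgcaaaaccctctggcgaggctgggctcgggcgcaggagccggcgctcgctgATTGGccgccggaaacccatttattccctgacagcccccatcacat

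Capitals in the promoters mark matches on either strand to any of 5 short motifs: the octamer ATGCAAAT that Oct4 binds, the Sox core ACAATG, the GC box GGGCGG, the TATA box TATAAA and CCAAT. Overlapping matches run together. The octamer occurs in 1.60% of 32851 promoter windows of this length and in none of those of the 6 measured members with a window in the table, and the Sox core in 10.7%. GC boxes occur in 32.7% of all windows; Sox2 has 2 and the printed Pou5f1 window has 1, and both have a CCAAT match, which 33.8% of windows hold. The table has a further Pou5f1 window at an internal start (chr17:35508557-35508806, plus strand, not printed), which has 1 Sox-core match, 1 CCAAT match and 0 GC boxes. A match is only a string of letters, and its absence says nothing of binding elsewhere in the gene.

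In the group of chromatin proteins, Utf1 (chromosome 7, 139943856 to 139945112) stood at 1262 (WT) and 2234 (KO) in ESCs and 5104 (WT) and 5553 (KO) in EBs. Both EB libraries were above both ESC libraries, and KO was above WT at each stage. Utf1 was 1.77-fold higher in KO than in WT ESCs (1.67 to 1.88) and 1.09-fold higher in KO than in WT EBs (1.04 to 1.14). Its EB over ESC ratio was 4.05 in WT (3.81 to 4.30) and 2.49 in KO (2.38 to 2.60), so the KO change was smaller by 0.70 on the log2 scale (0.60 to 0.81).

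Dppa2 (chromosome 16, 48310274 to 48319513) stood at 209 (WT) and 112 (KO) in ESCs and 108 (WT) and 228 (KO) in EBs. The 2 high libraries, KO EBs and WT ESCs, did not differ beyond counting error (ratio 1.09, 0.889 to 1.34), nor did the 2 low ones, KO ESCs and WT EBs (1.04, 0.790 to 1.39). Dppa2 was 1.87-fold lower in KO than in WT ESCs (1.55 to 2.25) and 2.12-fold higher in KO than in WT EBs (1.59 to 2.86). From ESCs to EBs it was 1.95-fold lower in WT (1.49 to 2.57) and 2.04-fold higher in KO (1.64 to 2.52). Over the 4 libraries its profile was nearest, of the measured members, to that of Pou5f1, with a root mean square distance of 0.130 on the log2 scale after centring.

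Of the RNA-binding proteins, Lin28a (chromosome 4, 134003330 to 134019196) varied most. It stood at 274 (WT) and 109 (KO) in ESCs and 1216 (WT) and 545 (KO) in EBs, from 352, 204, 780 and 365 reads. EBs were above ESCs in both genotypes and KO was below WT at both stages, with no overlap in counting error between any neighbours in the order. Lin28a was 2.52-fold lower in KO than in WT ESCs (2.11 to 3.01) and 2.23-fold lower in KO than in WT EBs (1.97 to 2.53). The EB over ESC ratio was 4.44 in WT (3.91 to 5.05) and 5.01 in KO (4.21 to 5.97), and the difference of these changes, 0.17 on the log2 scale, had an interval of -0.14 to 0.47. The promoters of Utf1 and Lin28a, the members highest in EBs relative to ESCs, share none of the 5 motifs.
Utf1 promoter, chr7:139943606-139943855, plus strand: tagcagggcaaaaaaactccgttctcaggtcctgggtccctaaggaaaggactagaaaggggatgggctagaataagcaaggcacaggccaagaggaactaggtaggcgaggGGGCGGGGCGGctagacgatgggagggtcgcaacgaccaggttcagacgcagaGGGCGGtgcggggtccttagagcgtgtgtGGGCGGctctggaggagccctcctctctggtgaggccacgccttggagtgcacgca
Lin28a promoter, chr4:134018817-134019066, minus strand: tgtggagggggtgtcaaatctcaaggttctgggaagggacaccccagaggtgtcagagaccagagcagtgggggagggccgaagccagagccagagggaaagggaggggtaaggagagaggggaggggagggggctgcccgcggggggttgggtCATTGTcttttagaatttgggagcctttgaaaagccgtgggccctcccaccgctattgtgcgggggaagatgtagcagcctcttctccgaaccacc

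In these windows Utf1 has 4 GC-box matches, a pair of them overlapping, and 0 of the other motifs. Lin28a has 1 Sox-core match and 0 GC boxes. The Lin28a window lies within the gene span given above, so the start it precedes is not the outermost one.

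Trim71 (chromosome 9, 114511268 to 114564369) stood at 2046 (WT) and 1537 (KO) in ESCs and 1925 (WT) and 1673 (KO) in EBs. Both KO libraries were below both WT libraries, by 1.33-fold in ESCs (1.26 to 1.40) and 1.15-fold in EBs (1.06 to 1.25). WT ESCs and WT EBs did not differ beyond counting error (ratio 0.941, 0.878 to 1.01).

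L1td1 (chromosome 4, 98726754 to 98738486) had the narrowest proportional range with Trim71, at 4426 (WT) and 4744 (KO) in ESCs and 4844 (WT) and 3608 (KO) in EBs. WT EBs and KO ESCs did not differ beyond counting error, and KO EBs were the lowest library. L1td1 was 1.34-fold lower in KO than in WT EBs (1.27 to 1.42) and 1.07-fold higher in KO than in WT ESCs (1.04 to 1.11).

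**Figure D2:**
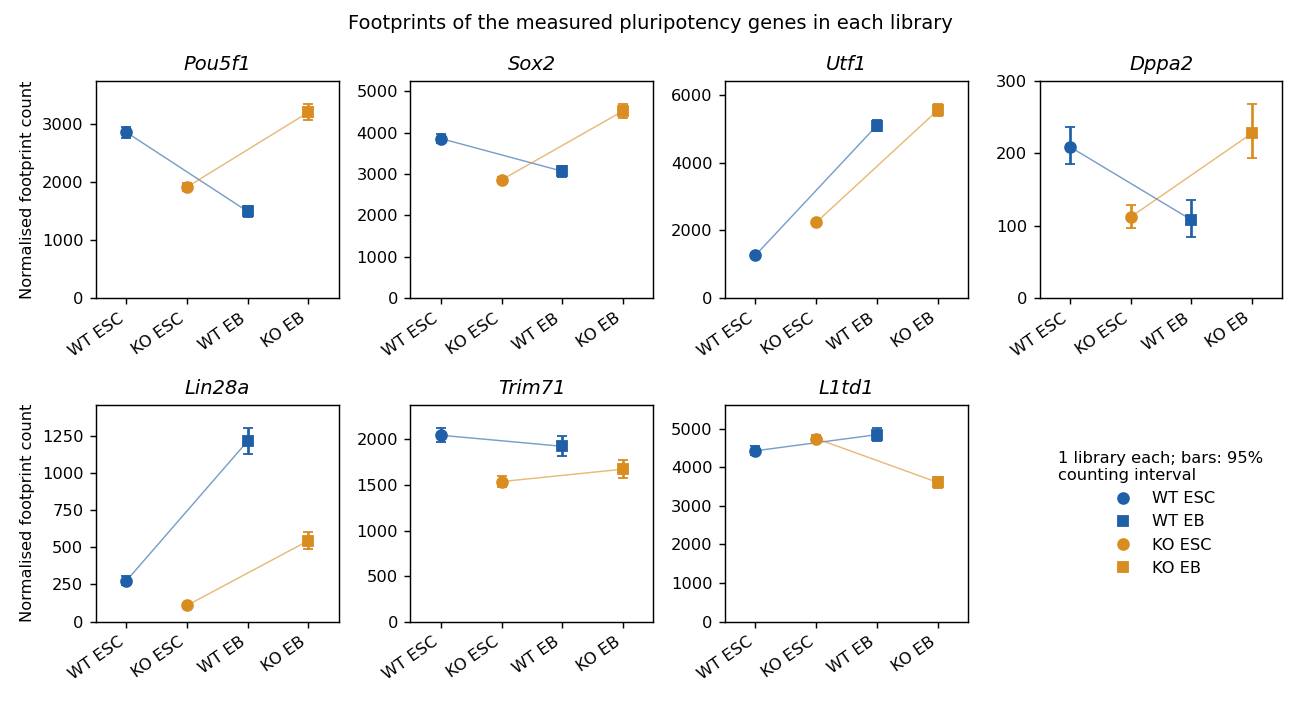
Normalised footprint count (linear axis from 0) of each measured member in the 4 libraries, with circles for ESCs, squares for EBs, blue for WT and orange for KO; bars are 95% counting intervals and lines join the 2 stages of a genotype. The order of the WT and KO points turns over between the stages for Pou5f1, Sox2, Dppa2 and L1td1. At both stages the KO point lies below the WT point for Lin28a and Trim71, and above it for Utf1.

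To compare levels between genes, the normalised count was divided by the length in kb of coding sequence found in no other entry. On this scale Pou5f1 was at 7278 per kb in WT ESCs, above 99.7% of 9174 genes ranked, and at 8155 in KO EBs. Sox2 followed in WT ESCs with 4019.8 per kb. The Pou5f1 value rests on the first 393 of 1059 coding nucleotides and that of Sox2 on all 960. The rank of Pou5f1 thus sets the first part of a coding sequence against whole ones, and whether that part is typical of the rest was not tested. Utf1 stood at 1237 per kb in WT ESCs, above 88.9% of genes, and at 5004 in WT EBs, above 99.6%. L1td1 lay between 1536 and 2062 per kb, and Trim71 between 599 and 797. Lin28a stood at 435 per kb in WT ESCs, above 66.3% of genes, and at 1929.6 in WT EBs, above 94.9%. Dppa2 was lowest, between 119 and 252 per kb. Counted per 100 usable windows instead, its WT ESC level of 308 lay between those of L1td1 (214) and Sox2 (426).

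Set against all genes, a mean normalised count of at least 25 was required, which 9670 genes and all 7 measured members met, and a gene was counted when at least 2-fold apart. Between KO and WT ESCs 1 of 7 members, Lin28a, was at least 2-fold lower, against 4.42% of all genes, and 0 were at least 2-fold higher, against 10.6%. Of the 7, 5 were below 0 and their median log2 fold was -0.43, with 0.00 over all genes. Between KO and WT EBs Pou5f1 and Dppa2 were at least 2-fold higher, against 15.2% of all genes, and Lin28a at least 2-fold lower, against 12.2% (27.4% in either direction). The members' median was 0.12 and that of all genes -0.07. Lin28a was the only measured member at least 2-fold apart in the same direction at both stages, which 7.19% of all genes were.

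**Figure D3:**
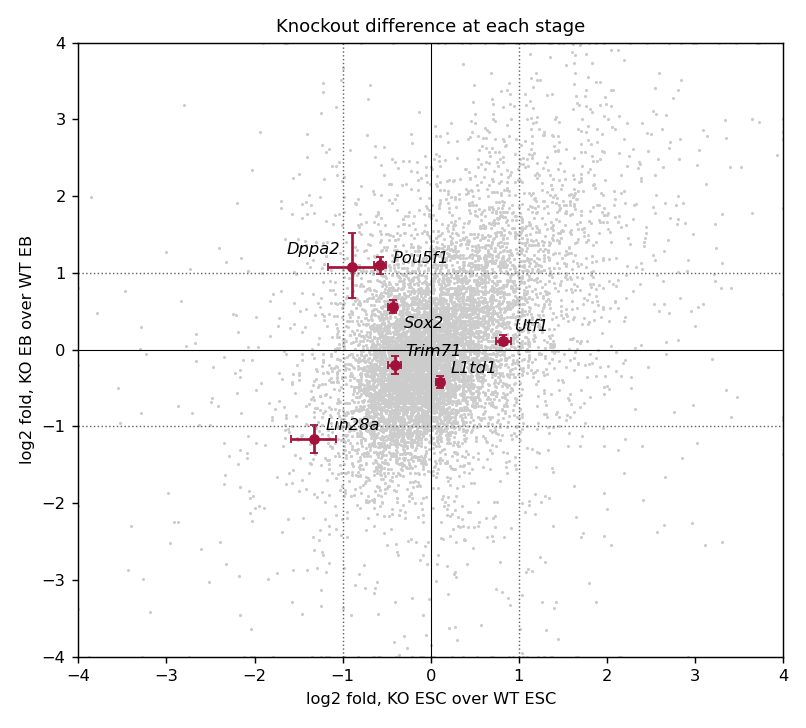
Log2 fold of KO over WT in ESCs (horizontal) and in EBs (vertical) for the measured members (red, with 95% counting intervals) and all tested genes (grey; 111 genes beyond 4 on either axis are drawn at the edge); dotted lines mark 2-fold. Dppa2, Pou5f1 and Sox2 lie in the upper left, lower in KO ESCs and higher in KO EBs, and Lin28a is past 2-fold lower on both axes.

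From ESCs to EBs in WT, Utf1 and Lin28a were at least 2-fold higher, 2 of 7 beside 11.0% of all genes, and 0 were at least 2-fold lower, against 8.25% (19.2% in either direction). In KO, Utf1, Lin28a and Dppa2 were at least 2-fold higher, 3 of 7 against 9.31%, and 0 lower, against 6.65%. The median of the members was -0.09 in WT and 0.74 in KO, where all genes had -0.02 and -0.08. With a pseudocount of 10 in place of 1 the log2 fold of Dppa2 in KO was 0.97 instead of 1.02, and 2 of 7 remained counted.

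The KO change minus the WT change was 1.98 on the log2 scale for Dppa2 (1.49 to 2.46), 1.68 for Pou5f1 (1.55 to 1.81) and 0.99 for Sox2 (0.90 to 1.09). It was -0.70 for Utf1 and -0.53 for L1td1 (-0.62 to -0.43), and 0.21 for Trim71 (0.07 to 0.35). Thus 2 of 7 were 1 or more above 0, against 11.4% of all genes, and 0 were 1 or more below 0, against 12.5%. By sign alone, a log2 fold below 0 from ESCs to EBs in WT and above 0 in KO was found for Pou5f1, Sox2, Dppa2 and Trim71, 4 of 7, against 19.5% of all genes; for Trim71 the WT interval includes 1, and for the other 3 both intervals exclude it. All 4 libraries enter this difference once, so it has no residual and no test.

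**Figure D4:**
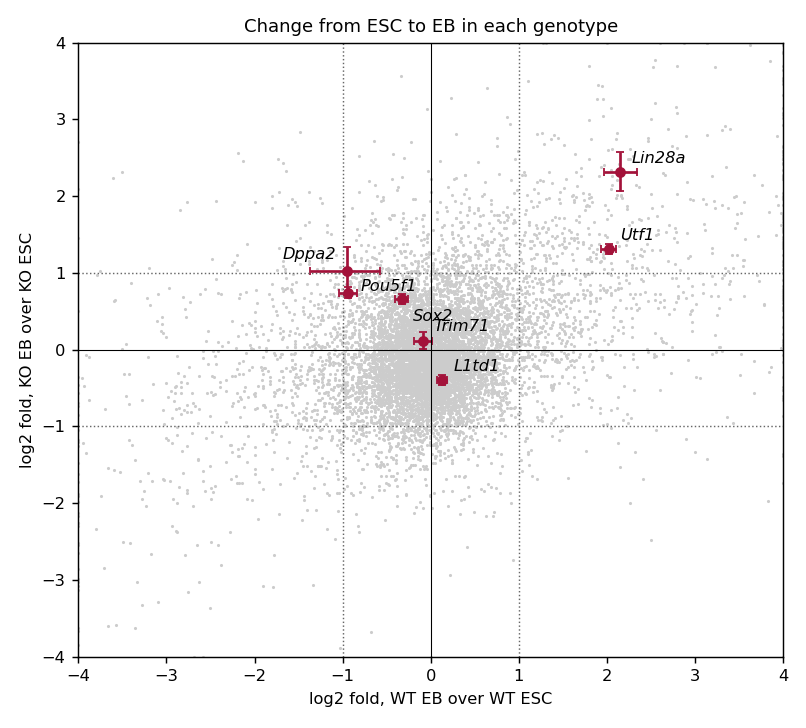
Log2 fold of EBs over ESCs in WT (horizontal) and in KO (vertical) for the measured members (red, with 95% counting intervals) and all tested genes (grey; 178 genes beyond 4 on either axis are drawn at the edge). Lin28a and Utf1 are past 2-fold (dotted lines) higher on both axes, and Dppa2, Pou5f1 and Sox2 lie left of 0 and above 0.

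A count test was added on the recovered reads with stage and genotype as separate terms, which leaves 1 residual degree of freedom and treats any difference between the 2 stages' KO effects as noise. By edgeR's quasi-likelihood test over 9670 genes with Benjamini-Hochberg adjustment, the EB effect of Lin28a was 2.26 on the log2 scale (adjusted p = 0.0607) and that of Utf1 was 1.69 (adjusted p = 0.0990); both genes were higher in 2 of 2 EB libraries. DESeq2 gave 2.27 with an SE of 0.396 (adjusted p = 2.13e-06) for Lin28a and 1.69 with an SE of 0.340 (adjusted p = 7e-05) for Utf1, so these calls depend on the tool. The KO effect of Lin28a was -1.22 with an adjusted p of 0.163 by edgeR and 0.0613 by DESeq2, and it did not pass in either. By edgeR 0 genes passed for the KO effect, with 1556 below 0.05 before adjustment (unadjusted p) and 322 called by DESeq2, and 25 passed for the EB effect, where DESeq2 called 375. None of the other 5 measured members passed in either tool for either effect.

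The genes whose centred log2 profile over the 4 libraries lay nearest to each member were sought among 6017 others with a mean of at least 200. Nearest to Pou5f1 were the ubiquitin-activating enzyme Uba1 (distance 0.0446) and the amino acid transporter subunit Slc7a5 (0.0461), and 63 genes lay within 0.2. Nearest to Sox2 were the histone genes H2bc3 (0.0156) and H4c4 (0.0232), with 435 within 0.2. For Lin28a the nearest was Capn6 (0.194) and it was the only gene within 0.2; it stood at 142, 48.0, 502 and 194 in WT ESCs, KO ESCs, WT EBs and KO EBs. For Utf1 Gstt2 (0.111) and Rhou (0.126) were nearest, with 9 genes within 0.2. Dppa2, among 6018 genes, was nearest to Tex19.2 (0.0373), which stood at 348, 188, 185 and 366, and to Ifitm2 (0.0800). For Trim71 and L1td1, whose values varied little, 1280 and 1337 genes lay within 0.2, Ndufb5 and Pdap1 nearest to the former and Numa1 and Brk1 to the latter.

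Genes around the core factors were taken from 7 lists; members of a list below the mean of 25 are left out of its counts. Of 16 genes known as Oct4 and Sox2 targets 12 passed. In KO against WT ESCs 0 were at least 2-fold higher and 3 lower, and the median was -0.48. In KO against WT EBs 3 passed 2-fold upward and 1 downward, and the median was 0.31; Klf4, a reprogramming factor, stood at 1088 in KO and 243 in WT (4.48-fold higher, 3.76 to 5.36), and Rif1, a telomere and replication-timing protein, was 2.38-fold lower (2.26 to 2.51). For the difference of the EB changes 11 of 12 were above 0 with a median of 0.83, beside -0.08 for all genes. The Nodal antagonist Lefty1 stood at 73.9 (WT) and 111 (KO) in ESCs and 519 (WT) and 1457 (KO) in EBs, the most EB-biased of the list in both genotypes. Fbxo15, an F-box protein gene, was the lowest of the list from ESCs to EBs in KO (1.76-fold lower, 1.65 to 1.89). Of the 16, 5 (Esrrb, Fgf4, Klf4, Nanog and Zfp42) are also naive ESC markers.

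Of 36 proteins reported to associate with Oct4, such as the NuRD and BAF chromatin remodellers, 29 passed. In KO against WT ESCs 0 were at least 2-fold higher and 2 lower (median -0.28), with the deacetylase Hdac1 lowest (246 and 600.0, 2.43-fold, 2.17 to 2.74) and the NuRD helicase Chd4 highest (1.21-fold higher, 1.17 to 1.26). In EBs 0 were at least 2-fold higher and 1 lower (median -0.34), Zfp462 by 2.07-fold (1.92 to 2.24), with Nacc1 highest (1087 in KO and 683 in WT). From ESCs to EBs 3 were at least 2-fold lower in WT and 0 in KO; Tfcp2l1, a naive pluripotency factor, was the lowest in both, 3.91-fold in WT (3.65 to 4.19) and 1.69-fold in KO (1.58 to 1.81).

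Related POU, SOX and SALL genes split. Of 18 that passed of 29, 5 were at least 2-fold higher and 0 lower in KO ESCs (median -0.01), against 10.6% and 4.42% of all genes. Among the 5 was Sox4 (2.74-fold, 2.21 to 3.42), and Sall3 was lowest of the list (1.89-fold lower, 1.67 to 2.14). In KO against WT EBs 6 were at least 2-fold higher and 3 lower (median 0.22), against 15.2% and 12.2% of all genes. The endoderm factor Sox7 was at 7.46 in KO and 357 in WT (47.8-fold lower, 20.2 to 149), and the neural crest factor Sox10 at 118 and 9.35 (12.6-fold higher, 5.54 to 35.4). In WT, 6 were at least 2-fold higher in EBs than in ESCs and 5 lower; Sox7 was highest (50.9-fold, 26.4 to 113) and Sall3 lowest (11.6-fold lower, 7.81 to 18.1). In KO, 6 were higher and 2 lower, among the latter Pou2f3 (5.91-fold, 4.52 to 7.87).

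Around Lin28a, 19 of 21 listed gene names of let-7 processing, uridylation and silencing were found among the genes, and 14 passed. In KO against WT ESCs 0 were at least 2-fold higher and 1 lower (median -0.15), the silencing adaptor Tnrc6c (2.23-fold, 2.06 to 2.43). In EBs 0 were 2-fold apart in either direction, 12 of 14 were below 0 and the median was -0.65, with -0.07 for all genes. Dgcr8, the partner of Drosha, was 1.93-fold lower in KO EBs (1.68 to 2.21), and Dicer1, which cuts let-7 precursors, stood at 1340.3 (WT) and 1482 (KO) in ESCs and 1914 (WT) and 1096 (KO) in EBs. Lin28b, the paralog of Lin28a, was at 49.8, 35.7, 39.0 and 20.9 in the same order. Of 24 let-7 target genes that passed of 28, 1 was at least 2-fold higher and 1 lower in KO ESCs (median -0.01): the kinase Cdk6 (2.14-fold higher, 1.83 to 2.52) and the zinc-finger gene Plagl1 (3.97-fold lower, 3.57 to 4.41). In KO EBs 4 of 24 were at least 2-fold higher and 2 lower (median -0.45), against 15.2% and 12.2% of all genes. Among them were cyclin D2, Ccnd2 (2.90-fold higher, 2.40 to 3.51), and the RNA-binding protein Igf2bp3 (2.81-fold lower, 2.48 to 3.19). From ESCs to EBs 3 were higher and 1 lower in each genotype; Irs2, an insulin receptor substrate, was highest in WT (5.48-fold, 4.65 to 6.48), Ccnd2 in KO (3.97-fold, 3.43 to 4.60), and Plagl1 lowest in WT (14.1-fold, 10.5 to 19.3) and KO (5.13-fold, 3.62 to 7.49). Dicer1 and Lin28b are in both let-7 lists. The mature let-7 RNAs themselves are not measured by footprints.

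Of 14 relatives and reported targets of Trim71, 6 passed. In KO ESCs 0 were at least 2-fold higher and 3 lower: the relatives Trim2 and Trim56, and Egr1, from 36, 39 and 8 KO reads. There Rbl1, E2f7 and Inhbb had log2 folds of -0.03, 0.22 and 0.16. In KO EBs 3 were higher and 2 lower. Inhbb, an activin subunit, was at 385 in KO EBs and 12.5 in WT EBs (30.9-fold, 15.4 to 72.3), and E2f7, a cell-cycle repressor, at 169 and 482 (2.86-fold lower, 2.29 to 3.57). The immediate-early factor Egr1 was at 4.27 in KO ESCs and 230.0 in KO EBs (53.9-fold, 26.7 to 127). Of 25 listed gene names of the 2-cell-like state, which depends on Dppa2 and Dppa4, 21 were found among the genes and 6 passed. Most belong to families of near-identical copies whose counts are uncertain. In KO against WT ESCs 0 were at least 2-fold higher and 3 lower (median -0.81), and in EBs 4 were higher and 0 lower (median 1.35). Zscan4d was at 61.5 (WT) and 52.8 (KO) in ESCs and 20.3 (WT) and 106 (KO) in EBs, and Usp17lb at 158, 49.6, 29.6 and 82.1.

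**Figure D5:**
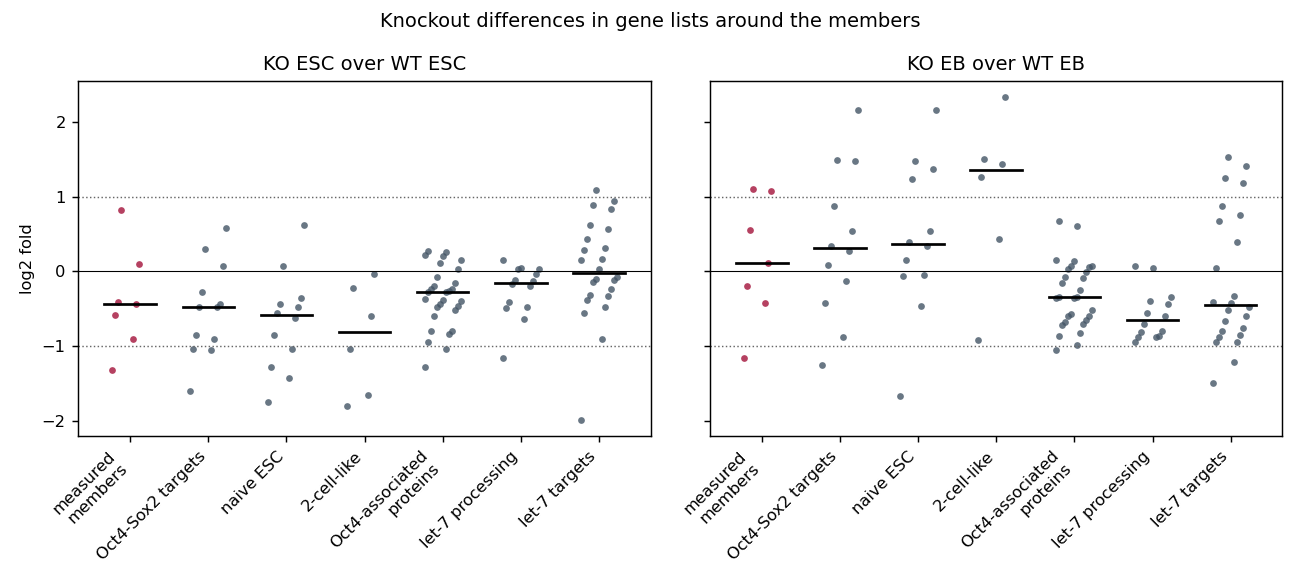
Log2 fold of KO over WT in ESCs (left) and EBs (right) for each tested gene of the members and of 6 lists; black bars are medians and dotted lines mark 2-fold. In ESCs the medians of members, Oct4-Sox2 targets and naive genes lie below 0 (-0.43, -0.48 and -0.58), and in EBs above it (0.12, 0.31 and 0.37), whereas Oct4-associated and let-7 processing genes lie below 0 in both.

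Markers of the cell types that such cultures can hold differed between the same libraries. The shares of all genes beside their counts were 10.6% higher and 4.42% lower in KO ESCs, and 15.2% and 12.2% in KO EBs. Summed over 15 naive ESC markers, of which 2 (Pecam1 and Tbx3) had 0 reads in every library, the normalised counts were 34607 (WT) and 23325 (KO) in ESCs and 16909 (WT) and 26419 (KO) in EBs, the same order of genotypes at each stage as for Pou5f1, Sox2 and Dppa2. Of the 12 that passed, 4 were at least 2-fold lower in KO ESCs, and 4 at least 2-fold higher and 1 lower in KO EBs. Visceral endoderm markers summed to 711 (WT) and 1141 (KO) in ESCs, and 18 of 18 that passed were at least 2-fold lower in KO than in WT EBs; 1 of 20 (Dab2) was at 0 in each EB library. Mesenchyme and matrix markers summed to 2428, 4649.5, 2352 and 13289 in the same order, with 10 of 11 at least 2-fold higher in KO EBs and 6 of 20 at 0 in each library. Trophoblast markers summed to 352, 1178, 5586 and 4314. Of the 7 that passed, 2 were at least 2-fold higher and 0 lower in KO than in WT EBs (median 0.39), so the median and the sum differ in direction; Krt18, a keratin of simple epithelia, stood at 2005 in KO and 3597 in WT EBs, and Ascl2 at 519 and 70.1. Formative markers summed to 3957, 3765, 5564 and 7198 in the order of the libraries used above. Of the 8 that passed, 4 were at least 2-fold higher and 1 lower in KO than in WT EBs. Nodal stood at 3996 in KO and 1135 in WT EBs, and Cldn6 at 666 and 2801. In each EB library 3 of 14 were at 0. Over WT ESCs, KO ESCs, WT EBs and KO EBs neuroectoderm markers summed to 1881, 1992, 723 and 1334. Of the 4 that passed, 1 was at least 2-fold higher and 1 lower in KO than in WT EBs. Tubb3 stood at 1133 in KO and 553 in WT EBs, and Sox1 at 2.99 and 26.5. In each EB library 6 of 12 were at 0. Cardiac and muscle markers summed to 616, 354, 1051 and 499 over the 4 libraries, and germ cell markers to 2670.5, 1574, 2366 and 1164. The part of these cell types in the members' values was not tested.

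METTL3 methylates adenosines in a short consensus, most often GGACT in DNA letters, so the coding sequences were searched for it on the sense strand. Methylation itself was not measured here. Of 9596 tested genes with a coding sequence 77.2% have at least 1 GGACT, with a median of 1.08 per kb. Sox2, Dppa2, Dppa4 and Lin28a have 0 matches in their coding sequences; among tested genes within 20% of the length of Lin28a, 56.6% have a match, and 69.8% for Sox2. Utf1 has 2, Sall4 4, Trim71 2, L1td1 2 and Pou5f1 1. Other parts of the mRNA were not searched. Lin28a (0 matches) and Trim71 (2) stood lower in KO at both stages, and Utf1 (2) stood higher at both. The genotype order differed between stages for Sox2 and Dppa2 (0) as for Pou5f1 (1) and L1td1 (2). Whether a match bears on these differences was not tested. The match nearest to the stop codon of each other member is printed with 10 bases on each side, in capitals.
Pou5f1, chr17:35506315-35506339, plus strand: acctcaggttGGACTgggcctagtc
Sall4, chr2:168756473-168756497, minus strand: agctgggcacGGACTccatcctgta
Utf1, chr7:139944965-139944989, plus strand: gcatccttggGGACTtgcgccaata
Trim71, chr9:114512664-114512688, minus strand: tcgtcgtggtGGACTttggcaacaa
L1td1, chr4:98737528-98737552, plus strand: tgccgtggagGGACTgaccaaggat

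The last match of Utf1 begins 16 nt before the end of its coding sequence and that of Trim71 34 nt before it. In Pou5f1, Sall4 and L1td1 it lies 834, 2773 and 579 nt before the end.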

How the data were processed

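Ribosome footprints were sequenced from 4 libraries, 1 each of WT and Mettl3-KO ESCs and EBs. The submitters' processing notes name mm10, DESeq, HTSeq 0.6.0, TopHat2 2.0.10, Bowtie and CASAVA 1.8.2; the annotation release and strand setting are not stated. What the authors deposited is a signal, the footprint count of each RefSeq coding sequence divided by 1 factor per library. In each library 100% of positive values were whole multiples of the smallest within 0.01, so read counts were recovered; 0 columns stayed unmatched. Of 27442 entries, 27083 were given symbols from a GRCm38.p6 table and summed to 20716 genes. The 5 summary entries, 66.6% to 72.1% of reads, stayed out of library sizes and tests.

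Log2 folds used a pseudocount of 1 and genes with a mean of at least 25. Read ratios carry exact conditional binomial intervals (Clopper-Pearson) and single values exact Poisson intervals; the difference of 2 changes has a Wald interval from the reads. Count tests used edgeR 4.0.16 with TMM and DESeq2 1.42.0, of which only edgeR was tested on simulated data. SciPy 1.17.1 gave intervals. Copies are exact matches of 28-nt windows on the primary chromosomes of GRCm38.p6. Named genes are the members, in each list and comparison the highest and the lowest gene reaching 100 in either library, and the 2 nearest genes by profile; other genes were named after their values were seen. The members and lists were chosen with earlier results of these data known. A gene selected by the naming rule is not reported here.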

Additional observations from a re-analysis of the deposited data

Results flagged for a closer look

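For 4 members the KO difference had opposite signs at the 2 stages, each time beyond counting error, and so had the change from ESCs to EBs in the 2 genotypes. The KO change minus the WT change was 1.68 on the log2 scale for Pou5f1, 0.99 for Sox2, 1.98 for Dppa2 and -0.53 for L1td1. Pou5f1, Sox2 and Dppa2 were lower in KO ESCs and higher in KO EBs, a pattern of 15.9% of all tested genes, and L1td1 stood higher in KO than WT ESCs but lower in KO than WT EBs, a pattern of 19.0%. Each group is 1 library, so the difference was not tested. The Dppa2 value rests on 69 reads in WT EBs, and the Pou5f1 value on its first 393 coding nucleotides.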

How the results depend on the processing

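No paired analysis was possible because the labels give no replicate numbers, and no library could be left out of a group of 1. Alternatives tried were a pseudocount of 10, no pseudocount with libraries at 0 set to 3 reads, equal totals, TMM, 1 entry per gene, no filter and a mean of at least 100. Under them no member changed direction in any comparison. A call of a member changed in 2 cases: Dppa2 from KO ESCs to KO EBs (0.97 with a pseudocount of 10) and Sox2 in the difference of the EB changes (1.09 with TMM, instead of 0.99). Without Dppa2, an alternative added after seeing the data because most of its sequence is copied, 1 member instead of 2 was at least 2-fold higher in KO than in WT EBs and 1 instead of 2 counted in the difference of the EB changes. The count test called 0 genes for the KO effect, 277 with no filter and 322 by DESeq2, and 25 for the EB effect, 338 with no filter and 375 by DESeq2; the cause was not tested. With the deposited factors edgeR called 0 and 24. Neither TMM nor equal totals moved the share of higher calls among all genes by over 10 percentage points in any comparison. Depth limits Dppa2 and Lin28a most, with 69 and 204 reads in their lowest library.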
